A study of Bos taurus with 8 samples.

Results

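The cell cycle and proliferation genes described here are 49 genes whose products copy DNA or carry a cell through mitosis. They were measured in bovine endometrium, the inner lining of the uterus. Probes were assigned by the gene symbol in the annotation of the array, and each gene was read through its brightest probe, the one with the highest mean signal over all arrays. Of the 49 genes, 46 had a probe, 109 probes in all, out of 17594 named genes on the array. MKI67, MCM2 and CENPA had no probe under this rule. The genes were split by role into 14 S phase genes, of which 13 had a probe, and 35 genes of G2 and mitosis, of which 33 had one.

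The study asked how methylglyoxal, a reactive dicarbonyl compound formed as a by-product of glycolysis, affects the endometrium when it is placed in the uterus. Each sample came from a different cow. On day 1, with standing oestrus as day 0, both uterine horns of a cow received 25 mL of fluid. Its methylglyoxal concentration was 0 mM for 4 cows, the controls, and 5 mM for the other 4. The horn next to the ovary with the corpus luteum was biopsied on day 7, and its RNA was hybridised to a one-colour Agilent array of its own. All 8 cows thus shared the injection, the volume and the day of sampling, and no breed, age or genotype was given in the labels.

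A dividing cell copies its genome in S phase and separates the copies in mitosis. Genes for the replicative helicase, the sliding clamp and nucleotide synthesis are switched on around the start of S phase by E2F transcription factors. Genes for mitotic cyclins, kinases, kinetochore proteins and spindle motors are switched on later, with FOXM1 as one of their activators. Some of their products, the mitotic cyclins among them, are destroyed when mitosis ends. In the cyclic uterus, ovarian steroids set which cells of the lining divide.

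Signals are given as the log2 signal of a probe minus the log2 of the 75th percentile of its own array, so a value of 0 is the 75th percentile, and differences are 5 mM minus 0 mM. Between 68.3% and 73.3% of probes were well above background on each array. Of the 8 arrays, 5 mM replicate 1 stood apart in its tissue markers. The summed linear signal of 14 epithelial markers was 5.03 times the 75th percentile there and 58.8 to 83.4 times in the other 7 cows, and the level of its 12 smooth muscle markers was the highest of all. Smooth muscle markers were also high in 0 mM replicate 1 and 5 mM replicate 3. The median differences of the S phase and of the G2 and mitosis genes are given with and without these arrays.

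The probes that the results turn on are shown by 30 of their 60 bases, 5′ to 3′, as the files give them. Positions refer to HGSC Btau_3.1, the genome build named in the array annotation. The first set stands for the genes with large and with small differences between cows.
ASPM, chr16:74328368-74330397, minus strand: tgtaagaaccacaatggtttcaagactcaa
CDC20, chr3:109574830-109574889, minus strand: tacagtggcatccgcagcagcagatgagac
UBE2C, chr13:75364411-75364967, plus strand: tgccgagctctggaaaaaccccacagcctt
RRM2, chr11:90263212-90263271, minus strand: aatacggatattgagtactgcacaagtgtt
MCM5, chr5:79117514-79117573, plus strand: tggtgtctgccctggctgcagatccaggaa
PCNA, chr13:47616506-47616565, minus strand: agtcaaatctggtcttgttaactgagtaat

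Most G2 and mitosis genes had lower mean signals after 5 mM than after 0 mM, while S phase genes lay close to 0, and no gene of either list passed the test. Of 33 G2 and mitosis genes, 31 had a lower mean in the 5 mM cows, with a median log2 difference of -0.64. The size of this median rested on single cows and on the background correction. It was -0.37 without 5 mM replicate 1, -1.11 without 5 mM replicate 2, -0.23 with normexp background correction and -0.080, with 22 of 33 genes lower, without the 3 arrays with the highest smooth muscle signal. On slide 2 alone, with 1 cow of 5 mM, the median was 0.70. The normexp setting added an offset of 50 to every signal, which by itself shrinks log2 differences of dim genes. Of 13 S phase genes, 9 were lower, with a median of -0.11. Over all 13164 named genes tested, 48.4% were lower and the median was 0.010. With limma and Benjamini-Hochberg adjustment over 31108 probes, 0 of the 46 genes had an adjusted p under 0.05, and their adjusted p lay between 0.913 and 0.999. Among all probes 0.0% passed as well.

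At an unadjusted p under 0.05, limma called 0 of the 46 genes, against 1.98% of all named genes. The lowest unadjusted p of a member was 0.0798, for CCNE2. In 0 of the 46 genes did the 4 cows of 5 mM all lie below the 4 cows of 0 mM, against 0.57% of all named genes, so the groups overlapped for every member. The median standard error of a difference was 0.52 for the G2 and mitosis genes and 0.24 for the S phase genes. The plot of differences by gene shows how wide the error was beside the shift.

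**Figure D1:**
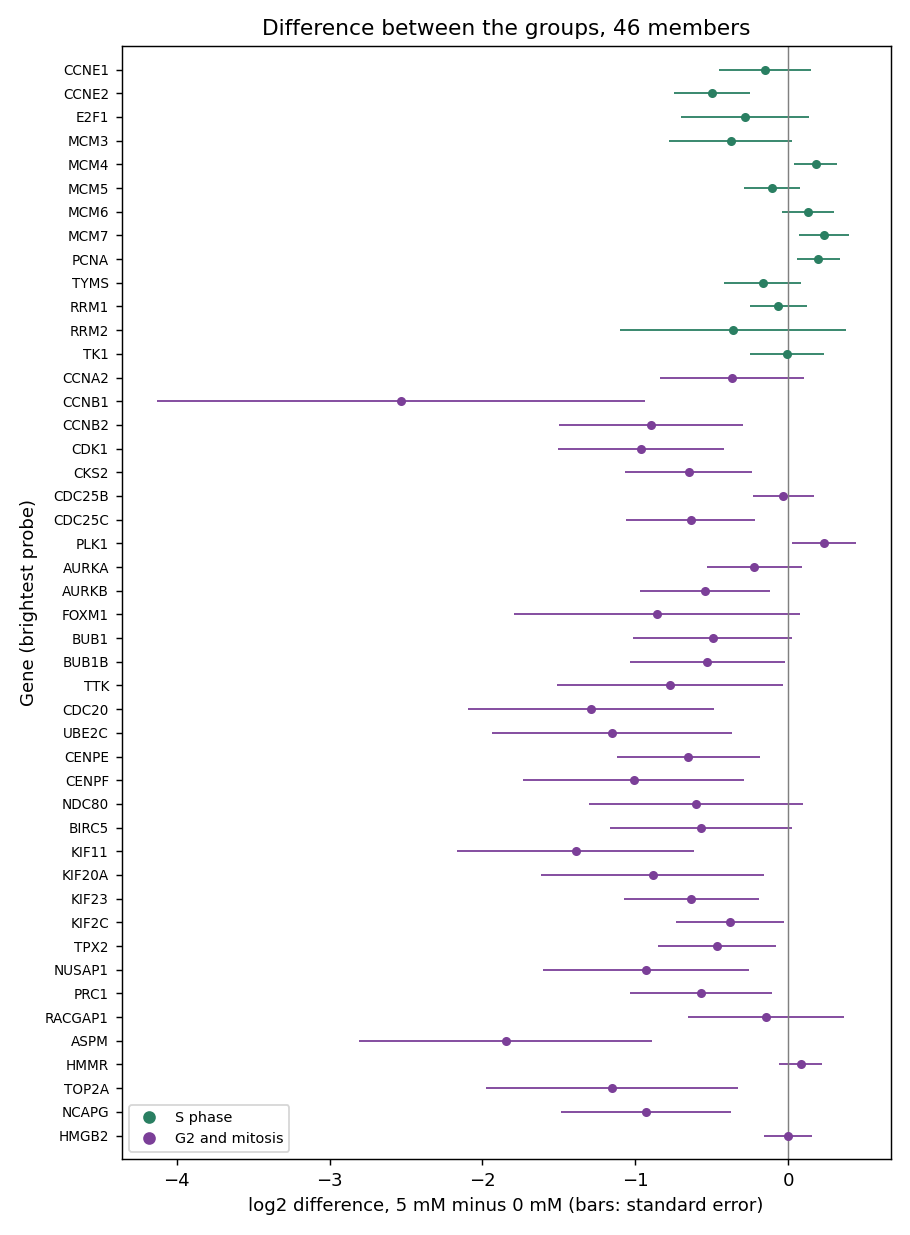
Points are log2 differences, 5 mM minus 0 mM, for the 46 genes on the y axis, and bars are standard errors from limma. Of the G2 and mitosis genes 31 of 33 lie left of 0, with a median of -0.64. It was -0.080 without the 3 arrays with the highest smooth muscle signal, which left replicates 2 and 4 of the 5 mM cows. The S phase genes gather near 0 with a median of -0.11.

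The G2 and mitosis genes were high or low together from cow to cow, across both groups. The level of a list in a cow is the mean, over its genes measured on all arrays, of each gene's log2 signal minus its mean over the 8 cows. For 32 G2 and mitosis genes this level was 0.31, -0.55, 1.00 and 0.57 in 0 mM replicates 1 to 4. It was -0.92, 0.99, -0.77 and -0.62 in 5 mM replicates 1 to 4. One cow of each group thus lay on the side where the other 3 of its group did not, 0 mM replicate 2 with low and 5 mM replicate 2 with high mitotic signal, and the groups overlapped.

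The S phase level moved far less. It was -0.097, -0.066, 0.31 and 0.045 in 0 mM replicates 1 to 4, and -0.15, 0.39, -0.32 and -0.11 in 5 mM replicates 1 to 4. The S phase level was still highest in 0 mM replicate 3 and 5 mM replicate 2, so in part it followed the same cows. The G2 and mitosis level minus the S phase level was 0.41, -0.49, 0.68 and 0.53 in the 0 mM cows and -0.77, 0.60, -0.45 and -0.51 in the 5 mM cows. In tissue samples, fewer dividing cells and less RNA per dividing cell cannot be told apart.

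**Figure D2:**
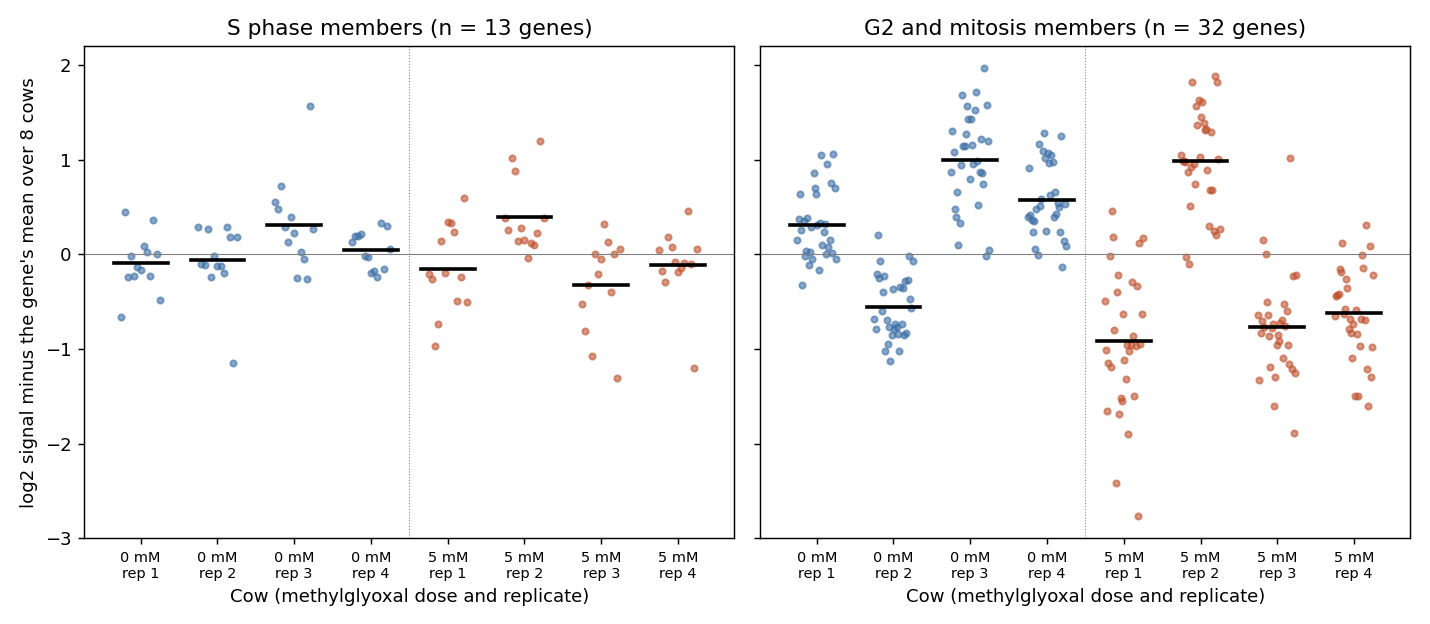
Each point is 1 gene in 1 cow, as its log2 signal minus the gene's mean over the 8 cows, with 0 mM cows in blue, 5 mM cows in orange and black lines for the mean over genes. The 32 G2 and mitosis genes are high in 0 mM replicates 1, 3 and 4 and 5 mM replicate 2, and the 13 S phase genes stay nearer to 0.

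The role groups within the list ran alike. The level of the 5 spindle checkpoint and anaphase genes was 0.36, -0.88, 1.31 and 0.90 in the 0 mM cows and -1.07, 1.25, -1.12 and -0.75 in the 5 mM cows. The 4 centromere and kinetochore genes were at 0.28, -0.66, 1.08 and 0.72 and at -1.01, 1.37, -0.86 and -0.92. In both groups of genes 0 mM replicate 3 and 5 mM replicate 2 were the highest cows. The mean level of the 6 helicase and clamp genes of S phase stayed between -0.15 and 0.26 in all 8 cows, although MCM3 alone ranged over 1.95.

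Ranked by single genes, the same cows stood out. Of the 32 G2 and mitosis genes, 25 had their 4 highest values in the same 4 cows, namely 0 mM replicates 1, 3 and 4 and 5 mM replicate 2. That is 78.1% of the list, against 0.868% of 13021 named genes. These cows were taken from the level of the list itself, so its share is in part set by that choice and is a description only. Of the S phase genes, 1 of 13 did so, namely CCNE2. The 7 exceptions among the G2 and mitosis genes were CDC25B, PLK1, AURKA, PRC1, RACGAP1, HMMR and HMGB2. The highest signal was in 5 mM replicate 2 for 15 of the 32 genes and in 0 mM replicate 3 for 14. Of the 13 S phase genes, 4 were highest in 5 mM replicate 2 and 4 in 0 mM replicate 3, against 8.56% and 11.2% of all named genes.

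The spread over cows was correspondingly unequal. The range, highest minus lowest cow, had a median of 2.28 on the log2 scale for the G2 and mitosis genes, 0.89 for the S phase genes and 1.05 for all named genes. It exceeded 2 in 21 of 32 G2 and mitosis genes, 1 of 13 S phase genes and 22.1% of all named genes. Among genes well above background on all 8 arrays, the medians were 2.06 for 25 G2 and mitosis genes, 0.76 for 12 S phase genes and 0.95 for 11588 genes. The lists also differed in signal, most S phase genes being brighter. Of the brightest G2 and mitosis genes, HMMR, HMGB2 and PLK1 ranged over 0.43, 0.48 and 1.05, and PRC1 over 2.01. CCNB1, also bright but not measured on all arrays, ranged over 6.28, with 5 mM replicate 1 alone low. The dim S phase genes RRM2, E2F1, CCNE2 and CCNE1 ranged over 2.87, 1.98, 1.29 and 1.21. The part of signal level in the contrast was not tested.

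**Figure D3:**
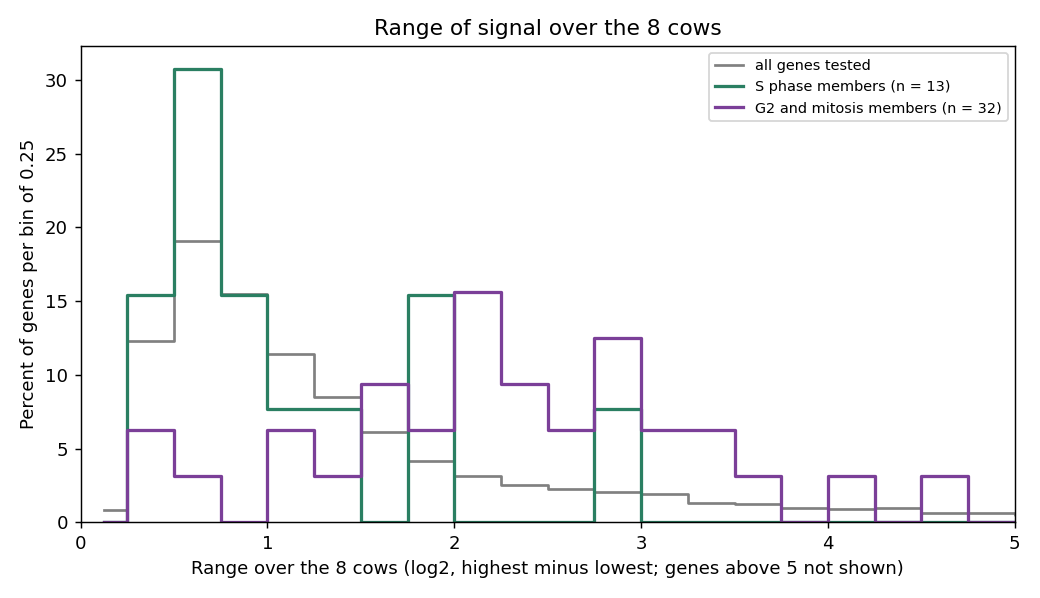
The x axis gives the range over the 8 cows in log2 units and the y axis the percent of genes in each bin, for 13 S phase genes, 32 G2 and mitosis genes and all named genes. The G2 and mitosis genes peak to the right of the others, with a median of 2.28 against 0.89 and 1.05.

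Among the regulators of the G1 to S transition, the values were low and moderately variable. CCNE2, a cyclin E that activates CDK2 at the start of S phase, was at -3.50, -4.05, -3.47 and -3.75 in 0 mM replicates 1 to 4 and at -4.21, -3.68, -4.76 and -4.12 in 5 mM replicates 1 to 4. In the 5 mM group replicate 2 lay above 2 of the 0 mM cows and the other cows lay below all 4, and the difference was -0.50 with a standard error of 0.25 and an adjusted p of 0.913 in limma. CCNE1, the other cyclin E, differed by -0.15 with a standard error of 0.30. E2F1, a transcription factor of S phase genes, differed by -0.28 with a standard error of 0.42.

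The replicative helicase and clamp genes had the smallest median range of the role groups, 0.56 over 6 genes, although MCM3 ranged over 1.95. MCM5, a subunit of the helicase that unwinds DNA at replication forks, was at 1.03, 1.15, 1.57 and 1.14 in the 0 mM cows and at 0.97, 1.45, 0.96 and 1.09 in the 5 mM cows. PCNA, the sliding clamp that holds DNA polymerase on its template, was at 2.73, 2.50, 2.73 and 2.46 in the 0 mM cows and at 2.94, 2.82, 2.83 and 2.62 in the 5 mM cows. Both genes stayed within narrow bounds in all cows, with ranges of 0.60 and 0.48, and the groups overlapped. The helicase subunits MCM4, MCM6 and MCM7 had differences of 0.18, 0.13 and 0.23, all with groups that overlapped.

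For MCM3, a further helicase subunit, the value depended on the probe. The brightest probe named MCM3 lies on chromosome 9, at chr9:90413780-90413839, and its description in the file is that of another transcript, C14orf44. It differed by -0.38 with a standard error of 0.40. The brightest MCM3 probe on chromosome 23, at chr23:25206743-25206802, differed by -0.012. The first 30 bases of both probes, shown because they are named for 1 gene, are these.
MCM3, chromosome 9, minus strand: gaataagggacgaacaggtatgttcctttc
MCM3, chromosome 23, minus strand: agttaagactcatatggaattttgacccaa

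Of the genes that supply nucleotides, RRM2 was the exception. RRM2, the small subunit of ribonucleotide reductase, which makes deoxyribonucleotides, was at -3.25, -4.40, -1.69 and -2.96 in the 0 mM cows and at -2.66, -2.06, -4.57 and -4.46 in the 5 mM cows. Its range of 2.87, a 7.33-fold span, was the widest of the S phase list, and it differed by -0.36 with a standard error of 0.74. Its 2 other probes gave -1.01 and -1.19, and on both of them 5 mM replicate 1 was among the low cows. RRM1, the large subunit of the same enzyme, differed by -0.064 with a range of 0.63. TYMS, thymidylate synthase, and TK1, thymidine kinase, differed by -0.17 and -0.0079.

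Mitotic entry genes showed the pattern of the cows plainly. CDK1, the kinase that starts mitosis, was at -2.43, -3.27, -1.99 and -2.66 in the 0 mM cows and at -4.72, -2.08, -3.90 and -3.50 in the 5 mM cows. CCNB2, one of its cyclins, was at -3.49, -4.66, -2.57 and -2.96 in the 0 mM cows and at -4.89, -2.89, -5.20 and -4.31 in the 5 mM cows. In both genes 5 mM replicate 2 lay among the high 0 mM cows, and 0 mM replicate 2 was the lowest of its group. The differences were -0.96 for CDK1, with a standard error of 0.54, and -0.90 for CCNB2, with a standard error of 0.60.

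CCNA2, the cyclin A of S phase and G2, differed by -0.37. CKS2, a small subunit of cyclin-dependent kinases, and CDC25C, a phosphatase that activates CDK1, differed by -0.65 and -0.64. AURKB, the kinase of the chromosomal passenger complex, differed by -0.54, and AURKA, a centrosome kinase, by -0.22. FOXM1 differed by -0.86 with a standard error of 0.94, and was well above background in 3 of 4 cows of 0 mM and 2 of 4 of 5 mM. PLK1, a kinase of mitotic entry, and CDC25B, a phosphatase that acts on CDK1, differed by 0.23 and -0.031.

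CCNB1, the main mitotic cyclin, followed another pattern. On its brightest probe it was at 2.39, 2.92, 2.40 and 1.11 in the 0 mM cows, at -3.36 in 5 mM replicate 1 and at 2.70 in 5 mM replicate 2. The spots of 5 mM replicates 3 and 4 carried a scanner outlier mark and were left out, so the difference of -2.54, with a standard error of 1.60, rests on 2 cows of 5 mM. The second probe was measured in all cows, at 1.46, 2.56, 1.78 and 2.06 in the 0 mM cows and at -4.49, 2.60, 1.47 and 2.57 in the 5 mM cows, a difference of -1.43. On both probes 5 mM replicate 1 alone was low, and without that cow the first probe gave 0.50, a value that rests on replicate 2 as the single remaining cow of 5 mM. The same cow had the low epithelial level of -2.99, against 0.28 to 0.86 in the other 7, and the part of the tissue markers in the CCNB1 signal was not tested.

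The 2 CCNB1 probes are not independent, since they share 22 bases, in capitals here, and lie on chromosome 20, minus strand.
CCNB1, brightest, chr20:11106729-11106792, bases 21 to 50: ctttGGAATACTACCTGCAAATAAAActcc
CCNB1, second, chr20:11106709-11106768, bases 1 to 30: GGAATACTACCTGCAAATAAAAttggcacc

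The spindle checkpoint and the anaphase-promoting complex had the largest median range of the role groups, 3.17 over 5 genes. CDC20, an activator of the anaphase-promoting complex, was at -3.54, -5.52, -2.83 and -3.12 in the 0 mM cows and at -5.91, -3.03, -5.99 and -5.23 in the 5 mM cows. UBE2C, the ubiquitin-conjugating enzyme of that complex, was at -2.81, -4.36, -2.08 and -2.49 in the 0 mM cows and at -5.06, -1.88, -4.81 and -4.61 in the 5 mM cows. Each gene thus spanned about the same distance, 8.97-fold for CDC20 and 9.07-fold for UBE2C, between its highest and lowest cow. The differences were -1.29 and -1.15, with standard errors of 0.81 and 0.78 and an adjusted p of 0.913 in limma. The checkpoint kinases BUB1, BUB1B and TTK differed by -0.49, -0.53 and -0.77, TTK being well above background in 1 of 4 cows of 5 mM.

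All 4 centromere and kinetochore genes with a probe had a lower mean in the 5 mM cows. CENPF, a large kinetochore protein, differed by -1.01 with a standard error of 0.72. CENPE, a kinetochore motor, NDC80, which binds microtubules, and BIRC5, survivin of the passenger complex, differed by -0.65, -0.60 and -0.57. BIRC5 was at -3.00, -4.10, -2.39 and -2.71 in the 0 mM cows and at -4.29, -1.95, -4.07 and -4.18 in the 5 mM cows, highest in 5 mM replicate 2.

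Neighbouring genes did not always share this pattern. BIRC5 and TK1 lie on chromosome 19 with their probes 50.2 kb apart, and BIRC5 ranged over 2.35 where TK1 ranged over 0.89. The probes of CDC25C and the motor gene KIF20A, 80.3 kb apart on chromosome 7, ranged over 2.06 and 2.82.

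Among spindle and cytokinesis genes, ASPM had the largest difference with all cows measured. ASPM, a spindle pole protein, was at -4.61, -5.64, -3.40 and -4.11 in the 0 mM cows and at -8.13, -3.48, -6.58 and -6.97 in the 5 mM cows. It was well above background in 4 cows of 0 mM and in 5 mM replicate 2 only, and the difference was -1.85 with a standard error of 0.96. NUSAP1, which bundles spindle microtubules, was at -0.02, -1.83, 0.24 and -0.43 in the 0 mM cows and at -2.48, 0.32, -1.93 and -1.67 in the 5 mM cows. NUSAP1 was well above background in all cows, and its values fell into a high set of 4 cows and a low set of 4 with a gap between -0.43 and -1.67.

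KIF11, the motor that separates spindle poles, differed by -1.39 and was well above background in 3 cows of 0 mM and 1 of 5 mM. KIF20A and KIF23, motors of cytokinesis, differed by -0.89 and -0.63, and KIF2C, which takes microtubules apart, by -0.38. TPX2, which activates AURKA on the spindle, and PRC1, which bundles the central spindle, differed by -0.47 and -0.57. RACGAP1, a regulator of the cleavage furrow, differed by -0.14 and was well above background in 3 cows of 0 mM and 2 of 5 mM.

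HMMR, a spindle protein that also binds hyaluronan, stayed at 0.49 to 0.92 in all cows on its brightest probe and differed by 0.083. Its other probes were at lower signals, and 2 of them that share 41 bases gave 0.20 and -0.60. These probes lie on chromosome 7, plus strand, and their shared bases are in capitals as far as shown.
HMMR, chr7:75325652-75325711, bases 1 to 30: CAGGAGGAATTGAATAAAGTTCTGGGTATC
HMMR, chr7:75325644-75325703, bases 5 to 34: acttCAGGAGGAATTGAATAAAGTTCTGGG

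Of 25 members with more than 1 tested probe, the sign of the difference depended on the probe in 5, namely BUB1, HMMR, MCM3, MCM4 and TPX2. The probes against the brightest gave 0.067 for BUB1, 0.29 for MCM3, -0.073 for MCM4 and 0.035 for TPX2, each smaller than its standard error. The HMMR value of -0.60 came from a probe well above background in 1 of 4 cows of 5 mM.

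**Figure D4:**
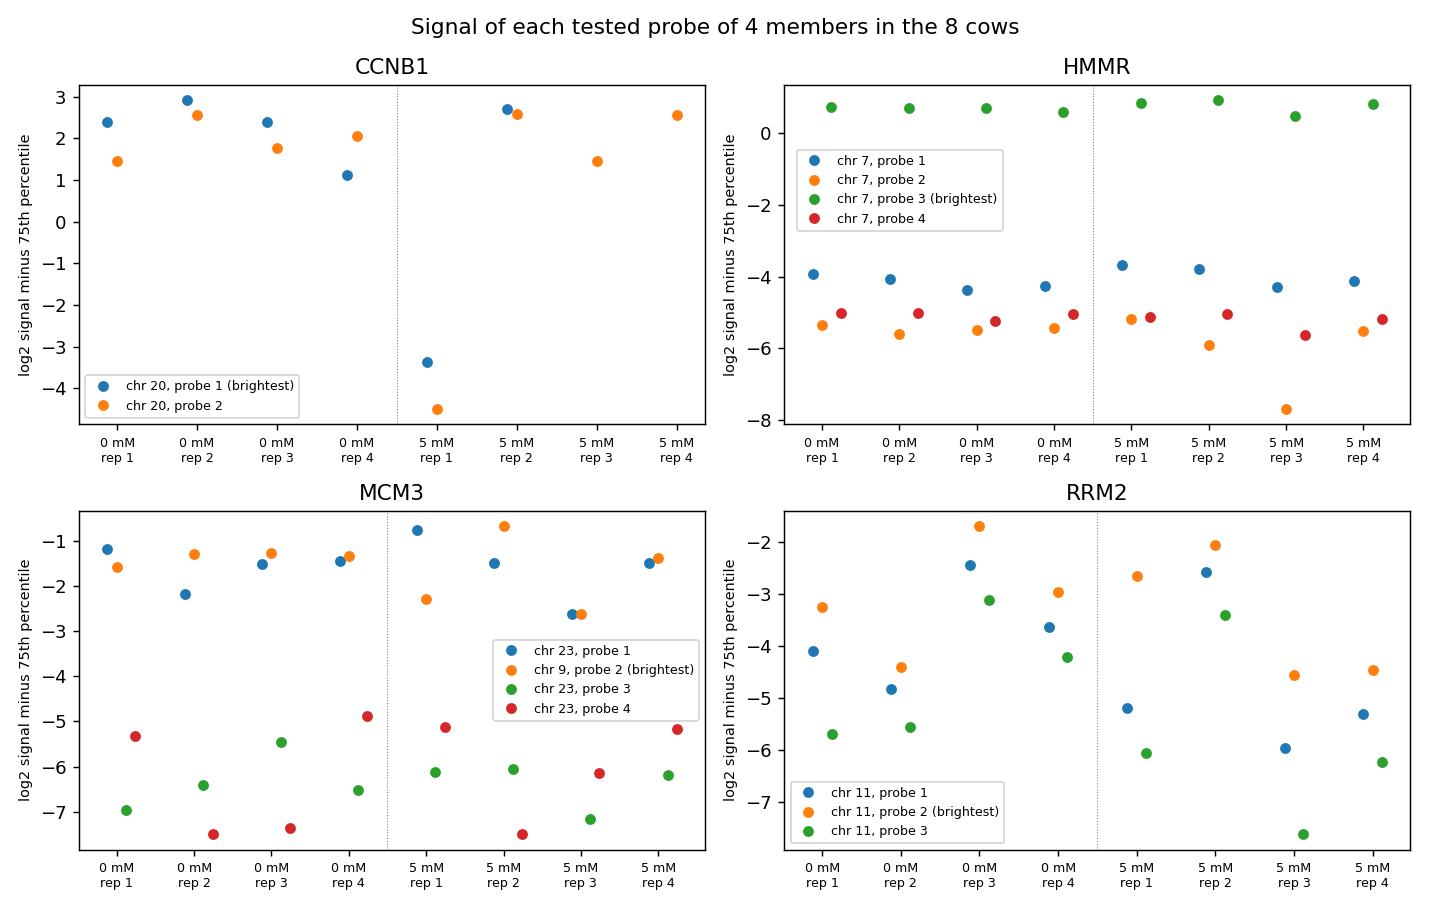
The y axis gives the log2 signal minus the 75th percentile of the array and the x axis the 8 cows, for each tested probe of CCNB1, HMMR, MCM3 and RRM2. Both CCNB1 probes are low in 5 mM replicate 1 alone, at -3.36 and -4.49, and for RRM2 that cow is among the 4 highest on the brightest probe and among the 4 lowest on the others.

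The genes of chromosome structure completed the list. TOP2A, the topoisomerase that untangles sister chromosomes, was at -4.08, -5.61, -3.55 and -4.99 in the 0 mM cows and at -6.08, -3.31, -7.02 and -6.43 in the 5 mM cows. It was well above background in 1 of 4 cows of 5 mM, replicate 2 being the highest of all 8, and differed by -1.15 with a standard error of 0.82. NCAPG, a condensin subunit, differed by -0.93. HMGB2, a chromatin protein, lay between 1.67 and 2.15 in all cows and differed by -0.00082.

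Further cell cycle genes were counted in the same way, again with 0 genes past an adjusted or an unadjusted p of 0.05 in limma. Of 43 further mitotic genes, 31 were lower after 5 mM with a median of -0.32, and 16 had their highest values in the same 4 cows as above. Of 34 further replication genes, 20 were lower with a median of -0.070, and 1 had its highest values in those cows. Among the replication genes with the lowest p, PRIM2, CDC7 and RFC4 differed by 0.37, 0.35 and 0.31, and ASF1B by -0.74. Among the mitotic genes with the lowest p, CEP55, a cytokinesis protein, DLGAP5, a spindle protein, and KIF15, a spindle motor, differed by -1.27, -1.25 and -1.04. CEP55 was well above background in 1 of 4 cows of 5 mM and KIF15 in 2 of 4, and with normexp they differed by -0.16 and -0.22. CKS1B, a paralogue of CKS2, was instead higher in all 4 cows of 5 mM than in any of 0 mM, with a difference of 0.49, an unadjusted p of 0.0504 and an adjusted p of 0.913 in limma; such a separation upwards held for 1.09% of named genes.

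The cow pattern stood beside other differences between the biopsies. Smooth muscle marker level was 1.32, -1.65, -0.99 and -0.92 in the 0 mM cows and 2.68, -1.30, 1.77 and -0.90 in the 5 mM cows, all 12 of 12 markers having a higher mean after 5 mM. Macrophage and dendritic cell level was -0.66, 0.38, 0.83 and 0.77 in the 0 mM cows and -0.85, 0.23, -0.85 and 0.16 in the 5 mM cows, with 10 of 10 markers lower after 5 mM. Epithelial markers had a lower mean after 5 mM in 14 of 14 genes, with a median of -1.02. Their level was -2.99 in 5 mM replicate 1, and 0.39, 0.44 and 0.31 in 5 mM replicates 2 to 4. In the 0 mM cows it was 0.28 to 0.86, so the lower mean rested on 5 mM replicate 1. Ciliated epithelial markers were lower in 8 of 8, with a median of -1.08. Their level was -2.79, 0.50, -0.54 and 0.52 in 5 mM replicates 1 to 4, against 0.36 to 0.80 in the 0 mM cows. B and plasma cell markers were lower in 7 of 7, with a median of -0.98, T and NK cell markers in 11 of 14, with a median of -0.72, and general leukocyte markers in 6 of 7, with a median of -0.54. Stromal markers were lower in 4 of 10, with a median of 0.057, and endothelial markers in 6 of 9, with a median of -0.24. In limma 0 of these markers had an adjusted p under 0.05. An unadjusted p under 0.05 in limma held for 2 of 7 B and plasma cell markers, 2 of 7 general leukocyte markers and 1 of 10 stromal markers, against 1.98% of all named genes. MS4A1, 1 of these B cell markers, was well above background in 0 of 4 cows of 5 mM. Without the 3 arrays with the highest smooth muscle signal, the median difference was -0.080 for the G2 and mitosis genes, with 22 of 33 lower, and 0.087 for the S phase genes, with 4 of 13 lower. Of the 5 mM cows this left replicates 2 and 4, whose mitotic levels were 0.99 and -0.62, so both medians rest on few cows. The part of tissue makeup in the mitotic signal was not tested further.

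**Figure D5:**
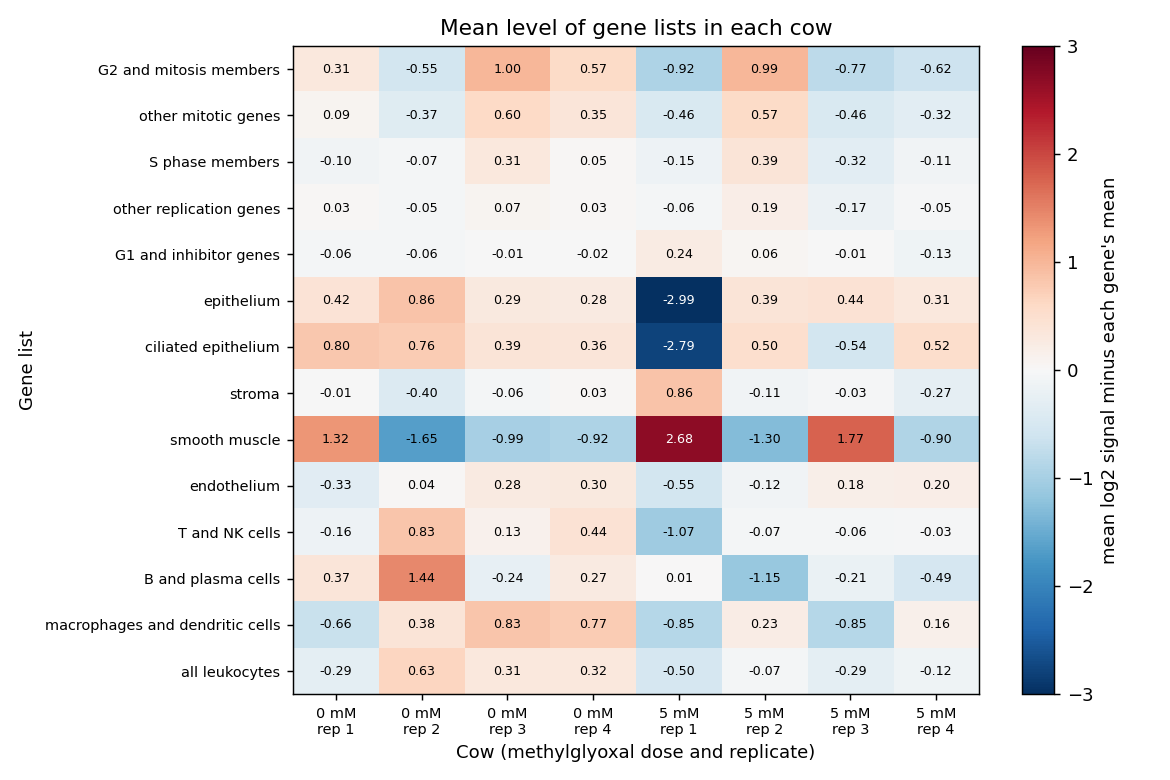
Each cell gives the mean log2 level of a gene list, in rows, in 1 cow, in columns, relative to each gene's mean, with red for high and blue for low. The G2 and mitosis row runs from -0.92 in 5 mM replicate 1 to 1.00 in 0 mM replicate 3, and epithelium is at -2.99 in 5 mM replicate 1.

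Single genes moved in the same way as the list median. Without 5 mM replicate 2, the differences of ASPM, CDC20 and UBE2C were -2.78, -1.96 and -1.89, and with normexp they were -0.32, -0.49 and -0.55. Dim genes lost most of their difference with normexp, where KIF11 was at -0.087, FOXM1 at -0.087, TTK at -0.069 and TOP2A at -0.25. The offset of 50 in that setting shrinks log2 differences of low signals by design, so this loss does not show the effect of background correction alone. Within slides, which each held both groups, the list median was -1.27 on slide 1 and -1.19 on slide 3, against 0.70 on slide 2. A single cow of 5 mM, replicate 2, was on slide 2 beside 0 mM replicates 2 and 3. Slide 1 had 1 cow of each group, so its value has no test, and slide 3 had a single cow of 0 mM, replicate 4, beside 2 of 5 mM.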

How the data were processed

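RNA of 8 biopsies was hybridised to Agilent arrays of design 023647. The deposited values are spot intensities on a linear scale, background-subtracted and detrended by Feature Extraction, per the file headers. The headers name version 11.5.1.1, where the submitters' processing notes name 10.5.1.1. The authors' deposited value table, in log2 units centred per probe, was used only as an alternative. Control and outlier spots were left out, log2 signals were shifted by the array's 75th percentile, and probes well above background on at least 4 of 8 arrays were tested with limma 3.58.1 in R 4.3.3, treatment being the only term. Gene names came from the files, updated with RefSeq ARS-UCD2.0, and no promoter sequences were analysed here. P-values measure the spread between cows, and the number of arrays limits the precision. The test was checked on simulated data with the spread of all tested probes, whose median standard error was 0.24, against 0.52 for the G2 and mitosis genes. Recovery at the spread of the G2 and mitosis genes was not measured. The test recovered 5 of 50 probes changed by 1 log2 unit and 33 of 50 changed by 2. All members but CCNB1 differed by less than 2, so the lack of calls does not show that differences are absent.

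Members and lists were chosen with earlier results of these data known. Named were all members, the 4 lowest-p genes of each other cell cycle list, CCND1, CCND2, CCND3, CDKN1A, CDKN1B, RB1, MYC, 9 markers and the 6 genes most like the mitotic level, 1 of which is not reported here. Alternatives were other scalings, filters, probe choices, slide and replicate blocks, array weights and leaving out cows. Chosen after seeing the data were leaving out 3 arrays and reading MCM3 on chromosome 23.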

Additional observations from a re-analysis of the deposited data

Results flagged for a closer look

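In 12 of 161 sets of 4 values, 1 cow lay far from the other 3. Each set was a gene or a list level in the 4 cows of 1 dose. Chance flags about 1 in 20 independent sets. All sets came from the same cows, many mitotic genes moved together, and the mitotic list level is a mean over such genes. The flags are thus not independent and their number cannot be compared with that rate. In 9 of the 12 flagged sets the cow far from the others was 5 mM replicate 2, which was higher than the other 5 mM cows. Its mitotic list level was 0.99, against -0.92 to -0.62 in the other 3. It was at -2.72 for CCNA2, -1.96 for AURKB, -1.88 for UBE2C, -3.07 for CENPE, -1.95 for BIRC5 and -2.33 for KIF20A among the members. Outside them it was at -4.06 for the histone chaperone gene ASF1B and at -2.92 for DLGAP5.

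PLK1 was at 0.31 in 0 mM replicate 2, below the 0.89 to 1.00 of the other 0 mM cows. EPCAM was at -1.26 and KRT8 at 0.62 in 5 mM replicate 1, where the other 5 mM cows lay at 4.54 to 4.82 and at 3.35 to 3.90.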

How the results depend on the processing

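Over 25 alternative settings members had 1141 values, of which 0 passed the adjusted threshold of limma, the lowest adjusted p being 0.667. Slide 1 alone and the mean over a gene's probes gave values with no test. The sign of a member's difference changed in 88 of these values and 57 moved by more than the spread within groups. Settings that alter only the probe filter or the variance model cannot change a gene's difference, so their values keep its sign. On slide 2 alone the median became 0.16 for the S phase genes and 0.70 for the G2 and mitosis genes. Leaving out each cow in turn gave medians of -0.22 to 0.0087 for the S phase genes and -1.11 to -0.37 for the G2 and mitosis genes. With the replicate number as a block the medians stayed at -0.11 and -0.64 and no call changed. Each number has 1 cow per group, so this block cannot change the difference of a gene measured in every cow. The numbers were not taken to pair the cows, since deviations of same-numbered cows correlated at 0.40, 0.36, -0.30 and 0.31 over 30839 probes and the pair numbered 3 went the other way. Pairs 1, 2 and 4 each shared a slide and correlated best with their own number, and pair 3 lay on different slides. The median shift moved the median of all genes to 0.065, with 41.1% lower instead of 48.4%. The S phase median, already near 0, was -0.012 with normexp, -0.039 with array weights, -0.027 with slide as a block and -0.064 with MCM3 read on chromosome 23.

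The log2 differences whose sign turned are given by setting, and the cause was not tested. With array weights they were RRM1 0.040, TK1 0.074 and FOXA2 0.26. With normexp they were CCNE1 0.043 and RRM1 0.0041, with quantile normalization CCND3 -0.023 and with a shift to the array median TK1 0.047, CDC25B 0.024 and HMGB2 0.054. With slide as a block they were TK1 0.052 and HMGB2 0.052. Within slide 3, with 1 cow of 0 mM, they were RRM1 0.10, CCND1 -0.20, PTPRC -0.0042, EPCAM 0.37, KRT8 0.025, PDGFRA -0.062 and FOXA2 0.59. Without the 3 arrays with the highest smooth muscle signal, an alternative chosen after seeing the data that kept only replicates 2 and 4 of the 5 mM cows, they were E2F1 0.093, MCM3 0.27, TYMS 0.087, RRM1 0.14, TK1 0.051, CCNA2 0.0040, CCNB1 0.56, CDC25C 0.031, FOXM1 0.17, NDC80 0.053, BIRC5 0.0049, KIF2C 0.00054, PRC1 0.14, HMGB2 0.0041, CDKN1B -0.0053, MYC -0.34, EPCAM 0.0044, PDGFRA -0.0019, FOXA2 0.35, CENPN 0.0015, PIMREG 0.12 and ABR 0.030. Within slide 2, with 1 cow of 5 mM, they were CCNE2 0.075, E2F1 0.71, MCM3 0.60, MCM5 0.093, RRM1 0.26, RRM2 0.99, TK1 0.16, CCNA2 0.96, CCNB1 0.045, CCNB2 0.73, CDK1 0.55, CKS2 0.64, CDC25C 0.58, AURKA 0.55, AURKB 0.57, FOXM1 1.49, BUB1 0.72, BUB1B 0.64, TTK 1.31, CDC20 1.15, UBE2C 1.34, CENPE 0.81, CENPF 1.13, NDC80 1.40, BIRC5 1.30, KIF11 0.97, KIF20A 0.97, KIF23 0.58, KIF2C 0.41, TPX2 0.42, NUSAP1 1.11, PRC1 0.39, RACGAP1 0.29, ASPM 1.04, TOP2A 1.27, NCAPG 0.70, HMGB2 0.28, ASF1B 0.21, CEP55 0.73, KIF15 0.66, DLGAP5 1.16, RBL1 0.21, CDKN1A -0.21, CDKN1B -0.10, RB1 -0.025, MYC -0.55, PECAM1 -0.075, FOXA2 0.71, CENPN 0.67, TCF19 0.77, PIMREG 1.48, ABR 0.33 and PCLAF 1.35. Leaving out 1 cow at a time turned the sign of 14 genes, CCNB1 without 5 mM replicate 1 resting on 1 cow of 5 mM. Their ranges were CCNB1 -5.57 to 0.50, CCND3 -0.14 to 0.21, CCNE1 -0.40 to 0.0066, CDC25B -0.14 to 0.10, CDKN1A -0.091 to 0.14, EPCAM -1.97 to 0.059, FOXA2 -0.89 to 0.41, HMGB2 -0.088 to 0.072, MCM5 -0.22 to 0.0087, MYC -0.043 to 0.66, RACGAP1 -0.51 to 0.24, RRM1 -0.16 to 0.047, RRM2 -0.82 to 0.10 and TK1 -0.17 to 0.16. Precision is limited by 4 cows a group, and for dim genes such as ASPM, TTK, TOP2A and KIF11 by signals not well above background in most 5 mM cows.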

Other observations

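Genes of the G1 phase and inhibitors of the cycle lay on the other side of 0 from the mitotic genes, with 9 of 32 lower after 5 mM and a median of 0.16. Their level was 0.24, 0.058, -0.012 and -0.13 in 5 mM replicates 1 to 4, against -0.062 to -0.013 in the 0 mM cows. The higher mean thus rested mostly on 5 mM replicate 1. That cow was highest for 15 of 31 of these genes, against 33.0% of all named genes. In limma 0 of these genes had an adjusted or an unadjusted p under 0.05. CCND2, a D-type cyclin that starts the cycle with CDK4 or CDK6, was at 4.34, 3.32, 3.41 and 3.56 in the 0 mM cows and at 5.91, 3.66, 4.50 and 3.46 in the 5 mM cows, highest in the 3 cows with the most smooth muscle signal. CCND1 and CCND3 differed by 0.22 and 0.020. The inhibitors CDKN1A and CDKN1B differed by 0.023 and 0.18, RB1 by 0.27 and MYC by 0.35. Besides CCND2, the genes of this list with the lowest p in limma were TFDP1, LIN52 and RBL1, with differences of 0.35, 0.35 and -0.49.

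Outside the lists, the genes whose signals were most like the G2 and mitosis level over the 8 cows included CENPN, TCF19, PIMREG, ABR and PCLAF. Pearson's r with that level ran from 0.98 for CENPN to 0.95 for PCLAF, and served only to rank genes, since the cows fell into a high and a low set. CENPN differed by -0.50 between the groups. PCLAF differed by -1.28, or by -0.087 with normexp, and was well above background in 1 of 4 cows of 5 mM.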
